A study of Macaca mulatta with 21 samples.

Results

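The genes described here encode the machinery that takes up glucose, breaks it down to pyruvate and either turns pyruvate into lactate or admits it to the mitochondrion. They were chosen as a list of 33 symbols, and each was read from the probe set (a group of short array probes for a single transcript) that carried its symbol alone and was brightest on average over the 21 arrays. Of the 33 genes, 23 had such a probe set, out of 14133 genes in all. PGK1 and MPC2 appeared only on probe sets shared with other symbols, and PFKM, PGAM1, LDHB, PDHA1, PDHB, PFKFB2, PFKFB4 and MPC1 had no probe set named here; these 10 genes were not analysed here. PDK4, a pyruvate dehydrogenase kinase linked to fasting, lay between log2 3.92 and 4.73 on every array and did not pass the filter (log2 5 or more on at least 3 arrays), which left 22 genes to test among 11143.

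Expression was measured in 7 cell lines of rhesus macaque, with 3 arrays (A, B and C) per line. The cloned lines, male CRES-1 and female CRES-3, came from embryos made by somatic cell nuclear transfer (SCNT) and grown to blastocysts. Retroviral vectors for OCT4, SOX2, Klf4 and cMYC gave the induced pluripotent lines: RiPS1 from male fetal skin fibroblasts, RiPS2 from those of a female of 10 years and RiPS3 from those of a female of 8 years. ORMES23 is a male line derived from an IVF blastocyst, and the skin fibroblasts were those of an adult female of 8 years. The labels call the arrays of a line biological replicates. Every line grew on inactivated mouse embryonic fibroblast feeders and each is a single derivation, so every test speaks for these lines and for the spread between their arrays. The fibroblasts were kept in another basal medium, with less serum, and were harvested with trypsin, whereas pluripotent colonies were picked by hand; medium, harvest and cell type cannot be told apart in any comparison with the fibroblasts.

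The labels were checked against defining markers. The mean of 7 pluripotency markers lay between log2 10.2 and 10.7 on the pluripotent arrays and between 3.96 and 4.28 on the fibroblast arrays, and the fibroblast mean of each of the 7 was under log2 5. ZFP42 was an exception among them: its line means were also under log2 5, from 4.10 to 4.95, in CRES-1, RiPS1, RiPS2 and RiPS3, against 4.07 in the fibroblasts. The mean of 10 fibroblast markers lay between 6.29 and 7.06 on the pluripotent arrays, and between 9.76 and 9.78 on the fibroblast arrays. The line means of FAP, PRRX1, LUM and TWIST2 were under log2 5 in every pluripotent line, although LUM varied widely in RiPS2 (4.47 ± 2.42, SD, n = 3), and TWIST2 was under log2 5 in the fibroblasts too. DCN did not separate the groups: its line means ran from 6.30 to 6.82 in the pluripotent lines, against 6.44 in the fibroblasts. THY1, COL1A1 and COL1A2 were lower in the pluripotent lines but stayed well above log2 5. THY1 reached 10.19 in RiPS1, against 10.61 in the fibroblasts, COL1A2 11.50 in RiPS1, against 14.10, and COL1A1 10.19 in RiPS3, against 12.84. Levels are log2 intensities, array medians ran from 4.98 to 5.14, and the levels of different genes are not compared because each probe set has its own brightness.

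Glucose enters cells through facilitative transporters and is trapped by hexokinase. Phosphofructokinase commits it to glycolysis, aldolase splits the sugar, and the lower enzymes harvest ATP and end in pyruvate. Lactate dehydrogenase converts pyruvate to lactate, which leaves through monocarboxylate transporters, while the pyruvate dehydrogenase complex, held in check by the PDK kinases, feeds the citric acid cycle. Primed pluripotent stem cells are known for relying heavily on glycolysis even with oxygen present, and MYC, LIN28 and hypoxia-inducible factors are known regulators of this pathway.

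The pathway did not move as a block between the pluripotent lines and the fibroblasts. Set against the fibroblasts, the mean of the 6 pluripotent lines was higher for 7 of 22 genes and lower for 5, at an adjusted p under 0.05 and a fold change of at least 2, the rule for a call throughout. The genes that rose serve glucose entry and trapping (SLC2A1, SLC2A3 and HK2), the splitting of the sugar (ALDOC), monocarboxylate transport (SLC16A1) and restraint of pyruvate dehydrogenase (PDK1 and PDK3). The genes that fell were the phosphofructokinases PFKL and PFKP, the regulator PFKFB3, the enolase ENO2 and the lactate exporter SLC16A3. Over all genes tested, 17.7% were called higher and 14% lower. Both shares of called genes were above their background, and this excess was not tested. The median log2 difference was 0.17 over the 22 genes and 0.03 over all genes tested.

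The arrays of the 2 groups did not overlap for 12 of the 22 genes, against 43.6% of all genes tested. Markers of dividing cells moved with this comparison: the mean of 7 cell cycle markers ran from log2 10.8 to 11.4 on the pluripotent arrays and stood at 10.2, 7.85 and 9.10 on fibroblast arrays A, B and C. Their part in the differences was not tested. The mean of the 22 genes stood at 9.68, 9.69 and 9.70 on the same fibroblast arrays, and single genes went either way there. GPI read 11.50, 10.64 and 10.93 and ENO1 13.71, 13.45 and 13.54, in the same order as the cell cycle markers. SLC2A3 read 9.86, 10.56 and 10.40 and HK2 8.08, 9.06 and 9.01, in the reverse order. These are bulk samples, in which fewer cells of a type and less RNA per cell cannot be told apart.

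**Figure D1:**
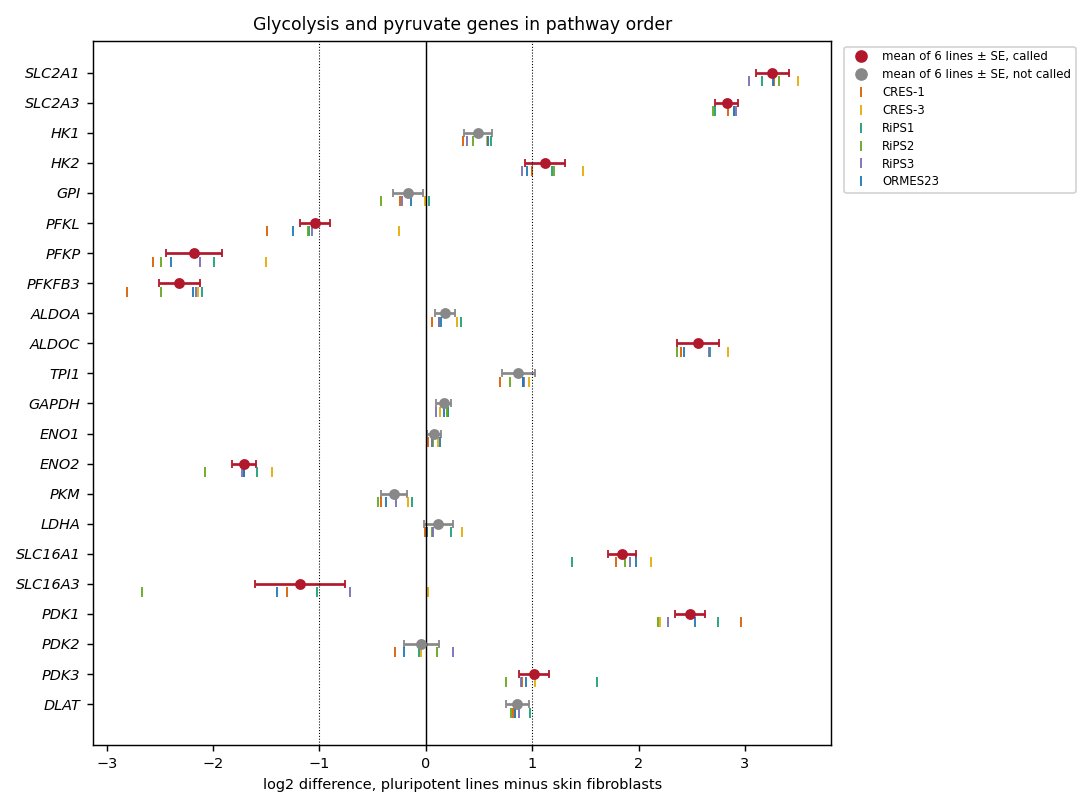
Log2 difference between pluripotent lines and skin fibroblasts for the 22 tested genes, in pathway order from glucose uptake (top) to pyruvate entry (bottom). Circles give the mean of the 6 pluripotent lines with its SE (red, called; grey, not called), ticks below give each line, and dotted lines mark a log2 difference of 1 either way; SLC2A1, SLC2A3, ALDOC and PDK1 lie furthest to the right and PFKFB3 and PFKP furthest to the left.

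Both glucose transporters rose, and on the brightest probe sets theirs were the largest measured log2 differences of the 22 genes; with the mean of the probe sets of a gene, DLAT, PDK1 and ALDOC were above them. SLC2A1 (GLUT1), the widespread basal glucose transporter, read at lowest 10.02, at median 10.56 and at highest 11.03 on the 18 pluripotent arrays, against 7.01, 7.30 and 7.62 on the fibroblast arrays. The lowest pluripotent array, RiPS3 A, was still far above the highest fibroblast array. The difference was log2 3.26 (SE 0.15, adjusted p = 2.12e-12), or 9.57-fold. A second SLC2A1 probe set averaged under log2 5 in both groups and gave 0.077, and the mean of both probe sets gave 1.67, still called. SLC2A3 (GLUT3), a transporter of high glucose affinity best known from neurons, read 12.79 at lowest, 13.11 at median and 13.33 at highest in the pluripotent lines, against 9.86, 10.56 and 10.40 in the fibroblasts. Here too the groups were well apart, by log2 2.83 (SE 0.11, adjusted p = 1.82e-13), or 7.10-fold. Of the 4 probe sets for SLC2A3, 3 gave differences between 1.81 and 2.83, and the dimmest gave -0.41; their mean gave 1.54, still called.

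Of the hexokinases, which phosphorylate glucose so that it stays in the cell, HK2 rose and HK1 was not called. HK2, the isoform often induced in proliferating cells, read 9.37 at lowest, 9.81 at median and 10.35 at highest on the pluripotent arrays, against 8.08, 9.06 and 9.01 on the fibroblast arrays. Fibroblast array A was low, and the gap between the groups was narrow. The difference was log2 1.12 (SE 0.19, adjusted p = 4.46e-05), a 2.17-fold rise, and without fibroblast array A it was 0.80 and under the fold limit. HK1, the constitutive isoform, differed by log2 0.49 (SE 0.13, adjusted p = 0.00279), under the fold limit, and its 4 probe sets disagreed, with differences from -0.85 to 0.49.

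GPI, which converts glucose-6-phosphate to fructose-6-phosphate, differed by -0.17 (SE 0.14, adjusted p = 0.303) on its brightest probe set. A second, dimmer GPI probe set gave -2.62, so the mean of the GPI probe sets fell by 1.05 and was called.

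At the committing step, both phosphofructokinase genes that were measured fell, and PFKM was not analysed. PFKP, the platelet-type phosphofructokinase, read 8.76 at lowest, 9.72 at median and 10.56 at highest on the pluripotent arrays, against 12.06, 11.86 and 11.78 on the fibroblast arrays. The fibroblasts stood above every pluripotent array, by 4.52-fold on average (log2 -2.18, SE 0.27, adjusted p = 8.50e-07). PFKL, the liver-type isoform, read 7.31 at lowest, 7.84 at median and 8.99 at highest in the pluripotent lines, against 9.10, 8.73 and 8.93 in the fibroblasts. Its groups overlapped through CRES-3, whose array A lay within the fibroblast range, and the mean difference was log2 -1.04 (SE 0.14, adjusted p = 3.41e-06). Without fibroblast array A it was -0.96, under the fold limit.

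PFKFB3 encodes a bifunctional enzyme that makes fructose-2,6-bisphosphate, the strongest activator of phosphofructokinase. It read 4.66 at lowest, 5.68 at median and 5.96 at highest on the pluripotent arrays, against 7.64, 8.10 and 7.78 on the fibroblast arrays. The pluripotent lines were near the filter level and the fibroblasts clearly above it; the fall was log2 -2.32 (SE 0.19, adjusted p = 5.38e-09), or 4.98-fold. CRES-1 C (4.67) and RiPS2 A (4.66) read under log2 5, so the size of this fall rests partly on values near background.

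Among the aldolases, ALDOC rose while ALDOA was not called. ALDOC, known as the brain isoform, read 8.60 at lowest, 9.21 at median and 9.64 at highest on the pluripotent arrays, against 6.44, 7.04 and 6.54 on the fibroblast arrays. The groups lay apart by log2 2.56 (SE 0.20, adjusted p = 1.72e-09), or 5.90-fold, and a second ALDOC probe set gave 1.17, with 1.87 for the mean of both. ALDOA, the muscle and ubiquitous isoform, differed by 0.18 (SE 0.10, adjusted p = 0.106).

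**Figure D2:**
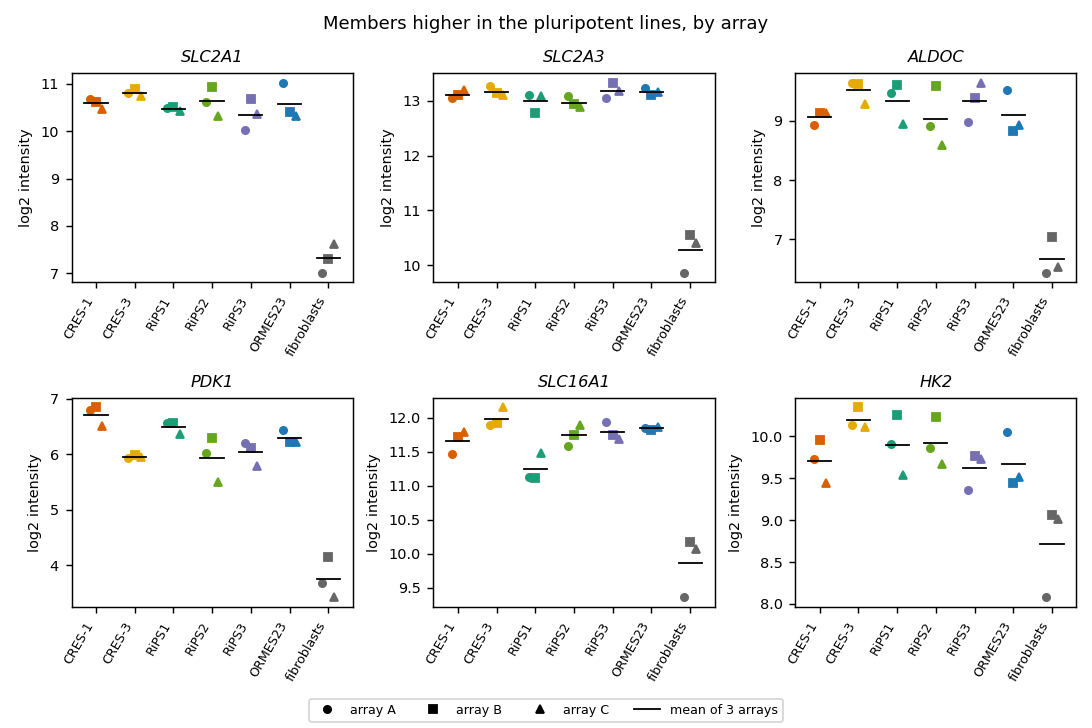
Log2 intensity on every array for SLC2A1, SLC2A3, ALDOC, PDK1, SLC16A1 and HK2, by line; symbols mark arrays A, B and C and bars the mean of 3 arrays. In each panel all 18 pluripotent arrays lie above the fibroblast arrays, with the narrowest gap for HK2.

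In the lower trunk of the pathway, GAPDH, ENO1, PKM and LDHA were nearly level between the groups. PGK1, PGAM1 and LDHB of this trunk were not analysed. GAPDH, which oxidizes glyceraldehyde-3-phosphate, differed by 0.17 (SE 0.07, adjusted p = 0.0435), ENO1, the ubiquitous enolase, by 0.08 (SE 0.07, adjusted p = 0.306), and PKM, the pyruvate kinase gene, by -0.30 (SE 0.12, adjusted p = 0.0338). LDHA, the lactate dehydrogenase subunit associated with lactate production, differed by 0.12 (SE 0.14, adjusted p = 0.453). None of these was called, although GAPDH and PKM passed the p threshold, and the arrays of both groups overlapped for all 4. The brightest GAPDH probe set is a control probe set of the array, and the 6 GAPDH probe sets gave differences between 0.17 and 0.43. TPI1, which interconverts the products of aldolase, passed the p threshold but was under the fold limit, at 0.87 (SE 0.16, adjusted p = 7.56e-05), with no overlap between the groups.

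ENO2, the enolase best known as a neuronal marker, was the only gene called in this lower part. It read 9.42 at lowest, 9.95 at median and 10.32 at highest on the pluripotent arrays, against 11.64, 11.53 and 11.77 on the fibroblast arrays. The fibroblasts were above every pluripotent array, a fall in the pluripotent lines of 3.27-fold (log2 -1.71, SE 0.11, adjusted p = 2.30e-10). TPI1 and ENO2 lie on chromosome 11 of the rhesus assembly T2T-MMU8v2.0 with 2 protein-coding genes between them, and their differences had opposite signs.

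**Figure D3:**
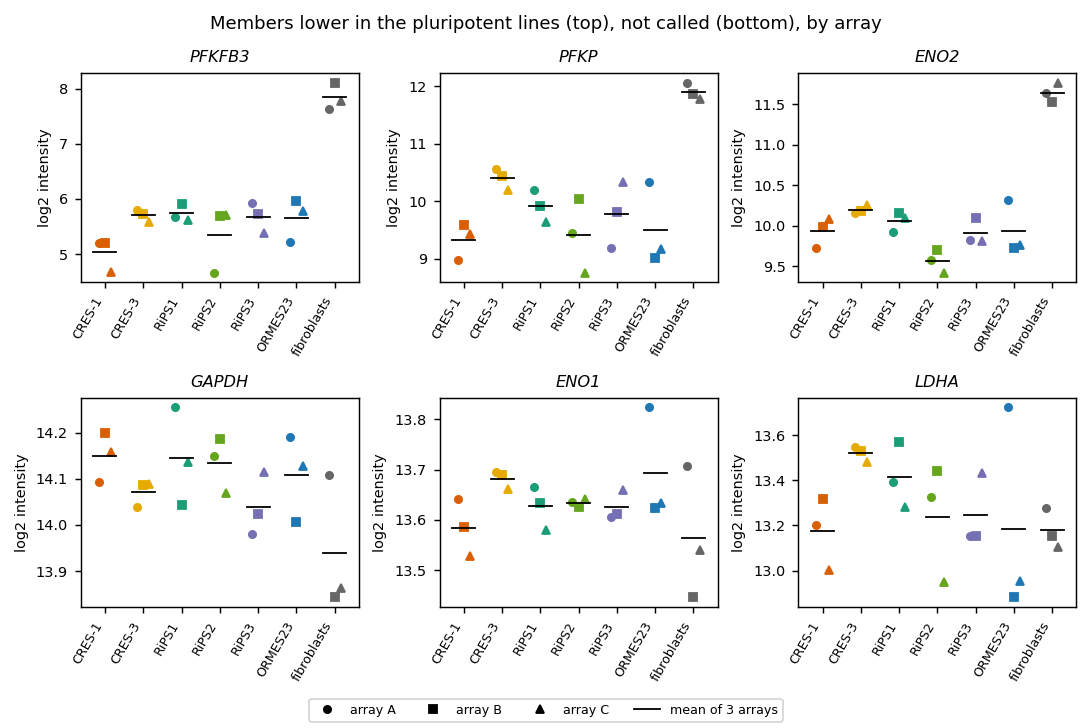
Log2 intensity on every array for PFKFB3, PFKP and ENO2 (top), lower in every pluripotent array than in the fibroblasts, and for GAPDH, ENO1 and LDHA (bottom), which were not called. Symbols mark arrays A, B and C, bars the mean of 3 arrays; the vertical scales of the bottom panels span less than log2 1.

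The monocarboxylate transporters moved in opposite directions. SLC16A1 (MCT1), which carries lactate and pyruvate across the membrane in either direction, read 11.12 at lowest, 11.77 at median and 12.15 at highest on the pluripotent arrays, against 9.36, 10.18 and 10.06 on the fibroblast arrays. It rose by log2 1.84 (SE 0.13, adjusted p = 7.68e-10), or 3.59-fold, and the other 2 SLC16A1 probe sets above background gave 1.75 and 1.92. SLC16A3 (MCT4), a transporter suited to lactate export and a known target of hypoxia-inducible factor, read 5.32 at lowest, 7.80 at median and 9.39 at highest in the pluripotent lines, against 8.93, 9.11 and 9.03 in the fibroblasts. The pluripotent arrays spread over a wide range that took in the fibroblast values, and the mean fall was log2 -1.18 (SE 0.43, adjusted p = 0.0199). This call was lost without fibroblast array B or C, where the adjusted p reached 0.0666, and with the mean of the SLC16A3 probe sets (-0.73, under the fold limit).

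At the entry to the mitochondrion, kinases that inactivate pyruvate dehydrogenase rose. PDK1 read 5.50 at lowest, 6.22 at median and 6.85 at highest on the pluripotent arrays, against 3.69, 4.16 and 3.43 on the fibroblast arrays. The fibroblasts lay under log2 5, near background, so the 2.36-fold rise counted from log2 5 is a lower bound: PDK1 was at least 2.36-fold higher, with a log2 difference of 2.48 (SE 0.14, adjusted p = 4.16e-11). PDK3, which is X-linked, read 5.77 at lowest, 6.15 at median and 7.17 at highest in the pluripotent lines, against 5.18, 5.10 and 5.33 in the fibroblasts. Its groups did not overlap, but at log2 1.02 (SE 0.14, adjusted p = 4.07e-06) it barely met the fold limit. It was 0.97 without fibroblast array B, and also under the limit without ORMES23 A, RiPS1 B or RiPS2 B (0.99 each). PDK2, the broadly expressed isoform, differed by -0.04 (SE 0.16, adjusted p = 0.833). DLAT, the acetyltransferase core of the complex, was 0.86 higher (SE 0.11, adjusted p = 1.28e-06) on its brightest probe set, under the fold limit, and 4.38 higher on a second probe set that read 9.62 in the pluripotent lines and 5.23 in the fibroblasts; the mean of the DLAT probe sets, at 2.62, was called.

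Line by line, against the same fibroblast arrays, 8 genes were called in each of the 6 lines: SLC2A1, SLC2A3, ALDOC, PDK1 and SLC16A1 as higher, and PFKP, ENO2 and PFKFB3 as lower. The total was 9 of 22 in CRES-1 (30.6% of all genes tested), 10 in CRES-3 (33.3%), 11 in RiPS1 (32.8%), 11 in RiPS2 (31.8%), 9 in RiPS3 (32.5%) and 10 in ORMES23 (32.6%). The comparisons share the fibroblast arrays, so their likeness is partly built in. The share of all genes called in all 6 lines was not counted, so the 8 genes have no background here. The remaining calls differed by line. HK2 was called in CRES-3 (1.48), RiPS1 (1.18) and RiPS2 (1.21), and stood at 0.99 in CRES-1, 0.90 in RiPS3 and 0.95 in ORMES23. PDK3 was called in CRES-3 (1.03) and RiPS1 (1.61). PFKL was called in every line but CRES-3, where the difference was -0.26. SLC16A3 was called in RiPS2 (-2.67) and ORMES23 (-1.40), stood at -1.31 in CRES-1 (adjusted p = 0.0525), -1.03 in RiPS1 and -0.72 in RiPS3 without a call, and at 0.02 in CRES-3.

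Differences among the 6 pluripotent lines were tested gene by gene with an F test, called at an adjusted p under 0.05 and a range of line means of at least log2 1. By this rule 2 of 22 genes were called, PFKL and SLC16A3, against 7.52% of all genes tested, a share near the background. Line means of GAPDH and ENO1 each spanned log2 0.11, those of DLAT 0.18, SLC2A3 0.22 and SLC2A1 0.46.

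PFKL set CRES-3 apart. It read 8.99, 8.51 and 8.50 on CRES-3 arrays A, B and C, against 7.31, 7.31 and 7.67 in CRES-1, 8.10, 7.79 and 7.59 in RiPS1, 7.50, 8.05 and 7.88 in RiPS2, 7.91, 7.59 and 8.07 in RiPS3 and 7.89, 7.59 and 7.53 in ORMES23. Every CRES-3 array was above every array of the other pluripotent lines. Line means spanned 1.23 (adjusted p = 0.00311 by the F test), and the range stayed called without any single array. Neighbours below CRES-3 in the order of means, RiPS3 (7.85 ± 0.25, SD, n = 3), RiPS1 (7.83 ± 0.25) and RiPS2 (7.81 ± 0.28), did not differ beyond their spread.

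SLC16A3 varied most, both between and within lines. It read 9.39, 8.98 and 8.77 in CRES-3, 7.43, 8.53 and 8.96 in RiPS3, 7.99, 8.61 and 7.39 in RiPS1, 7.53, 7.93 and 7.68 in CRES-1, 9.05, 6.90 and 6.93 in ORMES23 and 6.11, 7.62 and 5.32 in RiPS2. CRES-3 was high on all its arrays and RiPS2 low on 2 of 3, but ORMES23 A read as high as CRES-3. Line means spanned log2 2.70 (adjusted p = 0.0341 by the F test), and the call was lost without any of 8 single arrays, with an adjusted p up to 0.116.

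PDK1 and PDK3 passed the p threshold of the F test without reaching the range of log2 1. With single arrays left out, the adjusted p of this test reached 0.0731 for PDK1 and 0.162 for PDK3. PDK1 read 6.80, 6.85 and 6.51 in CRES-1, 6.56, 6.57 and 6.37 in RiPS1, 6.44, 6.22 and 6.22 in ORMES23, 6.21, 6.11 and 5.79 in RiPS3, a mean of 5.96 ± 0.03 (SD, n = 3) in CRES-3 and 6.02, 6.29 and 5.50 in RiPS2 (adjusted p = 0.0248). CRES-1 was highest and overlapped with RiPS1, and the 3 lowest lines overlapped with each other. PDK3, on the X chromosome, read 6.06, 6.35 and 5.89 in CRES-1, 6.15, 6.18 and 6.35 in CRES-3, 6.46, 7.17 and 6.81 in RiPS1, 5.82, 6.27 and 5.77 in RiPS2, 6.04, 6.14 and 6.10 in RiPS3 and between 5.91 (array B) and 6.51 (array A) in ORMES23 (adjusted p = 0.0288). Male RiPS1 had the highest mean, and its lowest array overlapped with ORMES23 A.

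SLC16A1 and ENO2 came next by p and missed both limits. SLC16A1 read 11.46, 11.72 and 11.79 in CRES-1, 11.89, 11.92 and 12.15 in CRES-3, 11.13, 11.12 and 11.48 in RiPS1, 11.58, 11.75 and 11.90 in RiPS2, 11.93, 11.74 and 11.69 in RiPS3 and 11.84, 11.82 and 11.87 in ORMES23 (adjusted p = 0.0574). RiPS1 was lowest, though its array C reached CRES-1 A. ENO2 read 9.72, 9.99 and 10.09 in CRES-1, 10.16, 10.18 and 10.26 in CRES-3, 9.92, 10.16 and 10.09 in RiPS1, 9.57, 9.70 and 9.42 in RiPS2, 9.82, 10.10 and 9.81 in RiPS3 and 10.32, 9.72 and 9.76 in ORMES23 (adjusted p = 0.0636). All RiPS2 arrays lay below every array of the other pluripotent lines, though array B only narrowly.

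**Figure D4:**
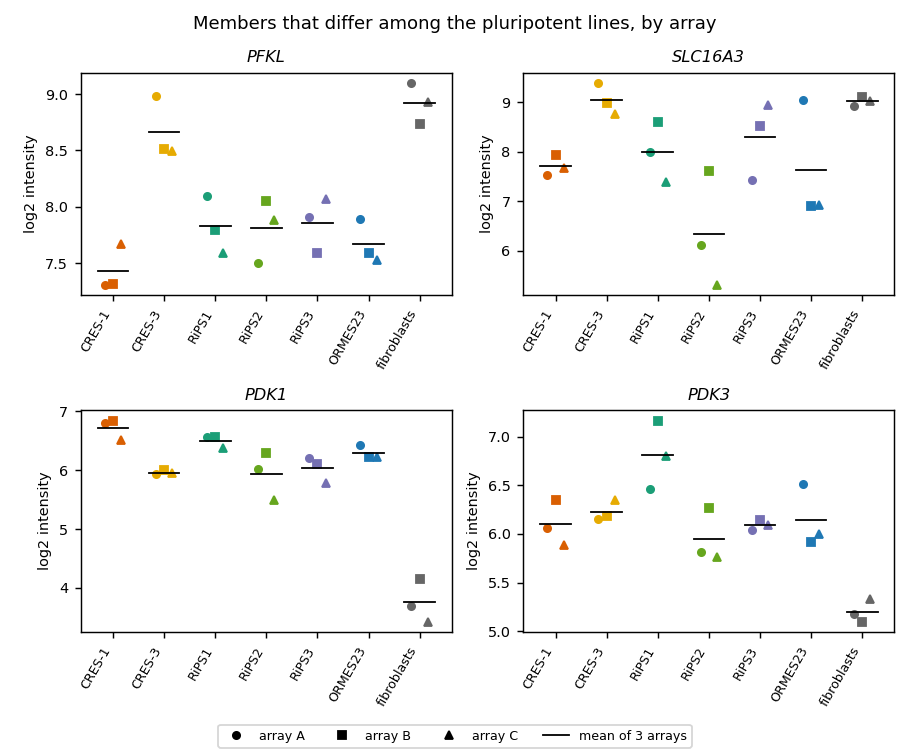
Log2 intensity of PFKL, SLC16A3, PDK1 and PDK3 on every array, by line; symbols mark arrays A, B and C and bars the mean of 3 arrays. PFKL stands high in CRES-3 among the pluripotent lines, SLC16A3 spreads widely within ORMES23 and RiPS2, and PDK3 is highest in RiPS1.

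How cloned and induced lines of the same sex differ was examined with CRES-3 against RiPS3 and CRES-1 against RiPS1. In females limma called 0 of 22 genes, against 0.0359% of all genes tested. An unadjusted p under 0.05 was reached by 3 of the 22, against 881 of 11143 genes. The larger share among the 22 was not tested. The 3 were PFKL, at 8.66 ± 0.28 in CRES-3 and 7.85 ± 0.25 in RiPS3 (difference 0.81, SE 0.19, adjusted p = 0.127), HK2 at 0.58 (SE 0.25, adjusted p = 0.570) and SLC2A1 at 0.46 (SE 0.20, adjusted p = 0.582). In males limma called 0 of 22, against 2.14% of all genes. An unadjusted p under 0.05 was reached by 5 of the 22, against 2449 of 11143 genes, a share near the background. PDK3 averaged 6.10 ± 0.23 in CRES-1 and 6.81 ± 0.35 in RiPS1, a difference of -0.71 (SE 0.18, adjusted p = 0.0256) that was under the fold limit. PFKFB3 differed by -0.71 (SE 0.25, adjusted p = 0.104), SLC16A1 by 0.41 (SE 0.17), PFKL by -0.40 (SE 0.19) and ALDOA by -0.27 (SE 0.13).

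For PFKL the cloned line was above the induced line in females (0.81) and below it in males (-0.40). A test of that difference itself, added after the data were seen, gave log2 1.21 (adjusted p = 0.0145). At an adjusted p under 0.05 this interaction was passed by 4.87% of all genes tested, and by PFKL alone of the 22, a share near the background.

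Against ORMES23, limma called 0 of 22 genes in each of the 5 reprogrammed lines, where all genes were called at 0% in CRES-1, 0.996% in CRES-3, 2.40% in RiPS1, 0.458% in RiPS2 and 0.763% in RiPS3. At an unadjusted p under 0.05 there were 2 genes in CRES-1, 4 in CRES-3, 2 in RiPS1, 2 in RiPS2 and 1 in RiPS3. Of all 11143 genes tested, 1270, 1886, 2315, 1327 and 1627 were under that limit, in the same order of lines. The shares among the 22 genes were near or below this background. Since ORMES23 is male, how a line was derived and its sex cannot be told apart where the line set against it is female. PFKL came closest, at 8.66 ± 0.28 in CRES-3 and 7.67 ± 0.19 in ORMES23 (0.99, SE 0.19, adjusted p = 0.00821), just under the fold limit. In RiPS1, PDK3 was 0.67 higher (SE 0.18, adjusted p = 0.0323) and SLC16A1 stood at -0.60 (SE 0.17, adjusted p = 0.0414), both under the fold limit. A single array bears on this count: without ORMES23 A, PFKL, PFKP and SLC16A3 were called higher in CRES-3.

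Within lines, single arrays were high for many of these genes together. ORMES23 A held the highest of the 3 ORMES23 values for 19 of 22 genes, where it held the highest value for 40.1% of all genes tested. RiPS2 B did so for 18 of 22, against 42.3% of all genes. The leading array of each line was picked by its count of these genes. A count above its share of all genes was therefore largely built in, and the excess was not tested. In the remaining pluripotent lines the leading array held 11 or 12 of the 22. These were CRES-1 B (12, against 32.3% of all genes), CRES-3 A (11, 29%), RiPS1 B (12, 30.6%) and RiPS3 C (11, 33.9%). The genes that spread most within pluripotent lines were SLC16A3 (SD 0.82 within lines), PFKP (0.50), PFKFB3 (0.34) and ALDOC (0.34), against a median of 0.19 over all genes tested, and those that spread least were GAPDH (0.07) and ENO1 (0.06).

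The mean of the 22 genes was 10.35 on ORMES23 A, against 9.90 on B and 9.93 on C, and it was 10.21 on RiPS2 B, against 9.84 on A and 9.75 on C. In each of the 6 pluripotent lines the array with the highest SLC16A3 value also had the highest mean of the 22 genes, a mean that includes SLC16A3. Endoderm markers, a mean of 7 genes, read 9.44, 7.68 and 7.16 on ORMES23 A, B and C, so they were high on the array where the glycolytic genes were high. On RiPS2 A, B and C they read 6.80, 6.49 and 6.90, lowest on the array where the glycolytic genes were highest. Neural ectoderm markers, a mean of 3 genes, were lowest on both of these arrays: they were under log2 6 on ORMES23 A, against 7.35 and 7.54 on B and C, and read 5.77 on RiPS2 B, against 7.24 and 7.52 on A and C. Trophoblast markers were lowest there too (5.44 on ORMES23 A, against 6.27 and 6.19, and 5.58 on RiPS2 B, against 5.68 and 6.65). Cell cycle markers were highest there (11.39 on ORMES23 A, against 11.19 and 11.25, and 11.34 on RiPS2 B, against 11.03 and 11.30). In the other pluripotent lines this varied. The array with the highest mean of the 22 genes was highest for cell cycle markers in CRES-1 and RiPS1, not in CRES-3 and RiPS3. It was lowest for trophoblast markers in all but CRES-3, and for neural ectoderm markers only in RiPS1. The part of differentiating or dividing cells in this spread was not tested.

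**Figure D5:**
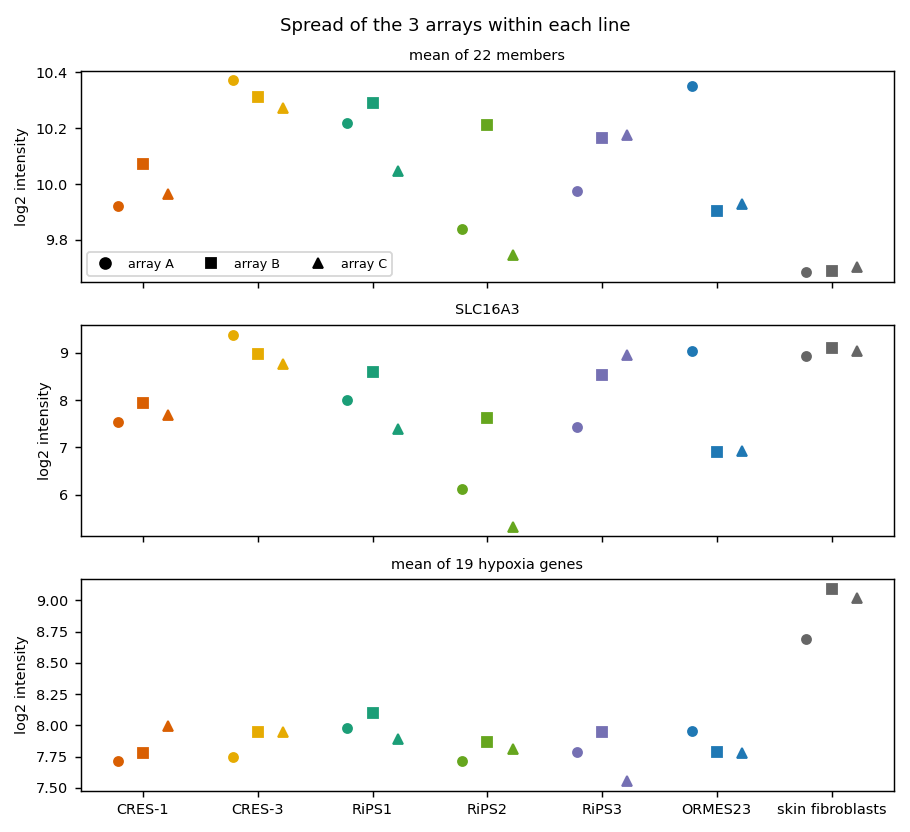
Mean log2 intensity of the 22 genes (top), of SLC16A3 (middle) and of 19 genes of the hypoxia-inducible factor pathway (bottom) on each array, by line. ORMES23 A and RiPS2 B stand above the other arrays of their lines in every panel, RiPS2 B only narrowly in the bottom panel. In CRES-1, CRES-3 and RiPS3 the highest array differs between the top and bottom panels. The fibroblasts are lowest in the top panel and highest in the bottom panel.

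Genes that surround the pathway gave a mixed picture in the pluripotent lines against the fibroblasts, and each list is read against the 17.7% of all genes tested that were called higher and the 14% called lower. Of 17 tested genes for other isozymes, sugar transporters and pyruvate enzymes, 5 fell and none rose. They include SLC2A8 (SE 0.07, adjusted p = 3.47e-10), an intracellular sugar transporter whose fall was just past the fold limit, ADPGK (-1.03, SE 0.13), an ADP-dependent glucokinase, SLC2A10 (-1.31, SE 0.16), a transporter linked to arterial tortuosity, and PC (-1.24, SE 0.17), the pyruvate carboxylase that replenishes the citric acid cycle. Of 4 tested pentose phosphate genes, RPIA, the ribose-5-phosphate isomerase, rose by 1.42 (SE 0.10) and PGLS, the lactonase of the oxidative branch, fell by 1.09 (SE 0.08).

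Of 14 tested genes on the citric acid cycle list, which includes cytosolic enzymes such as MDH1, 3 rose and 2 fell, shares near the background. CS, the citrate synthase that begins the cycle, averaged 8.08 in the pluripotent lines and 5.76 in the fibroblasts, a rise of 2.32 (SE 0.12, adjusted p = 9.78e-12), and the cytosolic malate dehydrogenase MDH1 rose by 1.24 (SE 0.08). SDHA, the flavoprotein of succinate dehydrogenase, fell by 1.61 (SE 0.10), and SUCLG1, a succinyl-CoA ligase subunit, fell by 1.23 (SE 0.09).

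Of 9 tested regulators that have been tied to glycolysis in stem cells, 4 rose and 1 fell. Among those that rose, LIN28B also served above as a pluripotency marker to check the labels, so its rise is not a separate result. LIN28B, an RNA-binding protein that blocks let-7, was 7.53 higher (SE 0.10), MYCN 7.09 (SE 0.23) and MYCL 4.23 (SE 0.23), the last 2 being MYC family factors; all 3 averaged under log2 5 in the fibroblasts, so these log2 differences are no measured ratios. TFAM, which maintains mitochondrial DNA, rose by 1.96 (SE 0.13). MYC itself averaged 10.1 in the pluripotent lines and 9.41 in the fibroblasts, a difference of 0.71 (SE 0.18) under the fold limit.

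Genes of the hypoxia-inducible factor pathway other than the glycolytic ones fell in 7 and rose in 3 of 19 cases, with a median difference of -0.72; the other 9 were not called. LOX, a collagen crosslinker, fell by 5.62 (SE 0.37), ARNT2, a dimerization partner of the factor, averaged 4.92, under log2 5, in the pluripotent lines and 9.97 in the fibroblasts, and CA12, a carbonic anhydrase, stood at -3.34 (SE 0.20). CA9, a carbonic anhydrase used as a hypoxia marker, rose to 8.32 in the pluripotent lines, against 6.82 in the fibroblasts (SE of the difference 0.13). LOX is also a matrix gene of fibroblasts, and the fibroblast markers given above moved the same way; their part in this list was not tested.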

How the data were processed

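The values are log2 intensities per probe set from Affymetrix rhesus arrays, deposited by the authors as RMA values, per the submitters' processing notes (RMA is a standard background correction, quantile normalization and summary of probes); its version is not given in the sources used here. Of 52865 probe sets, 24969 carried 1 symbol in the platform annotation, 361 several and 27535 none, and only the first kind was used. Each gene was read from its brightest probe set, and a gene was tested where at least 3 arrays reached log2 5. All 21 arrays entered a linear model with a mean per line (limma 3.58.1 in R 4.3.3, 14 residual degrees of freedom, empirical Bayes moderation), and two-sided p-values were adjusted by Benjamini-Hochberg over 11143 genes. SE is that of the model and SD that over the 3 arrays of a line. The same scripts were tested on simulated data.

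The genes, companion lists, markers and rules were chosen with earlier results of these data known. Array values are given for up to 7 called rises, 7 called falls and the 6 smallest p-values among the pluripotent lines, and at most 4 called genes of smallest p are named per companion list; MYC was named after its value was seen. The letters A, B and C were checked as pairs: of 63 pairs of arrays with the same letter in different lines, 20 had deviations correlating over 0.1, with a median of 0.01, so the letters were not taken as pairs. The number of arrays limits the precision. No 2 arrays were identical; the highest correlation was 0.996. Alternatives changed the scaling, filter, probe set rule, variance model, block and arrays used.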

Additional observations from a re-analysis of the deposited data

Results flagged for a closer look

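PFKL drew attention because the difference between cloned and induced lines did not match between the sexes. It was 0.81 in females (CRES-3 minus RiPS3) and -0.40 in males (CRES-1 minus RiPS1), and the tested difference of these values was log2 1.21 (adjusted p = 0.0145). It kept its sign and stayed under an adjusted p of 0.05 without any single array of these lines, with values from 1.05 to 1.32 and an adjusted p up to 0.0478. Each sex is represented by a single line per route, so sex and line cannot be told apart.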

How the results depend on the processing

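The count of 12 genes called in the pluripotent lines against the fibroblasts was 11 after centring or quantile normalization, 13 with the mean of the probe sets of a gene and 12 with the replicate block on the letters; without single arrays it lay between 10 and 12, and without ORMES23 A and fibroblast array B together, a setting chosen after seeing the data, it was 11. The replicate block changed no call of these genes. The 2 genes called among the pluripotent lines became 1 with the mean of the probe sets (SLC16A3 lost), and 1 to 3 without single arrays, losing SLC16A3 without CRES-1 A, CRES-3 A, B or C, RiPS1 A, RiPS2 A or C, or RiPS3 B and gaining PDK3 without RiPS1 A or RiPS2 B. The 0 genes of CRES-3 against ORMES23 became 1 (PFKL) after quantile normalization and 0 to 3 without single arrays: 3 without ORMES23 A, and 1 without CRES-3 B or C. For differences from the fibroblasts that were not called, GPI turned to 0.070 and PDK2 to 0.18 without fibroblast array A, and over single arrays left out they ran from -0.36 to 0.070 and from -0.27 to 0.18. PDK3 was also lost after centring (0.98) and quantile normalization (0.96). The causes were not tested. Centring moved the median of all genes by -0.04. Values under log2 5 lie near background and limit PDK1 in the fibroblasts, PFKFB3 on CRES-1 C and RiPS2 A, and PDK4 everywhere.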
